A study of Mus musculus with 8 samples.

Results

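The 9 genes Mmp8, Mmp13, Mmp9, Mmp12, Mmp14, Mmp19, Adam8, Adam17 and Timp1, of 21080 gene symbols measured, were examined in mouse bone marrow-derived macrophages (BMDMs, cells grown from marrow with M-CSF). They were taken by symbol as metalloproteinases and an inhibitor of them, by a rule that uses no measured value, though the choice of these 9 was made with earlier results of these data known. RNA was sequenced from 8 samples in 4 groups of 2, each sample a pool of the BMDMs of 2 mice. Wild-type (WT) mice were sex-matched littermates that carry LysM Cre, so every group carried the Cre, and Nudt21-cKO mice were Nudt21 fl/fl LysM Cre, in which exons 2 and 3 of Nudt21 are removed from cells with an active lysozyme M promoter. Nudt21 encodes a subunit of cleavage factor Im, which binds UGUA in pre-mRNA and takes part in the choice of the polyadenylation site. WT and cKO cells were taken at 0 h without stimulation, or after IFNγ at 50 ng/ml overnight and LPS at 50 ng/ml for 4 h. The treatment label of the 0 h samples also names IFNγ and LPS, and they were taken as unstimulated from their titles and the study's methods. The cells are C57BL/6 cultures, and all values below are RNA levels, with no measure of protein, secretion or enzyme activity.

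Metalloproteinases cut proteins with a zinc ion in the active site. The matrix metalloproteinases (MMPs) are made as inactive zymogens and digest collagens, elastin, chemokines and other secreted proteins, the ADAMs are anchored in the membrane and release the outer part of other membrane proteins, and the TIMPs bind the active site and block it. In macrophages these enzymes serve migration through matrix, matrix turnover and the release of cytokines such as TNF.

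The deposited value of a gene was taken as the mean number of reads over each base of the gene (coverage per base). This unit was inferred from how the values behave, as the authors did not name it. Such a value is a level per length and so allows genes to be set side by side. Summed coverage lay between 14950347 and 17954882 per sample. Genotypes were compared with limma on log2(coverage + 0.1), and a gene was called when its fold change was above 1.5 and its unadjusted p was under 0.05, the rule of the study. Adjusted p-values are Benjamini-Hochberg values over all genes tested. All genes together moved between groups on the deposited scale: the median log2 fold change was 0.10 for cKO against WT at 0 h, 0.31 at 4 h, -1.27 for stimulation in WT and -1.05 for stimulation in cKO, and values after centring each sample on its median are therefore given beside the deposited ones where they bear on a call. Centring added 1.45 to each log2 fold change for stimulation in WT and 1.20 in cKO, and took 0.092 at 0 h and 0.34 at 4 h from those for cKO against WT. Nudt21 had a coverage of 718 and 641 in WT against 158 and 172 in cKO at 0 h, and of 547 and 575 in WT against 142 and 115 in cKO at 4 h. All 10 macrophage markers were detected in every group, with a summed coverage of 131428 to 140827 at 0 h and 70262 to 80084 at 4 h. In such bulk samples fewer cells of a type and less RNA per cell cannot be told apart.

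At rest, the macrophages held Mmp12 at by far the highest level of the 9 genes. Mmp12, the macrophage metalloelastase, had a coverage of 37362 and 47254 in WT at 0 h and stood at a mean rank of 31 among all genes. Adam8, a sheddase of myeloid cells, followed at 8805 and 8688. Adam17, the enzyme that releases TNF from the membrane, was at 3815 and 4258. Mmp14, a membrane-anchored MMP that activates pro-Mmp2, was at 1859 and 2243. The other 5 genes were lower: Mmp19 at 578 and 733, Mmp8 at 669.8 and 615, Mmp13 at 359.5 and 382, Mmp9 at 58.8 and 85.0 and Timp1 at 50.6 and 75.1. The values of Mmp19 and Mmp8 overlapped, as did those of Mmp9 and Timp1, and the other neighbours in this order did not overlap.

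After stimulation the order was a different one. Mmp13, the main interstitial collagenase of rodents, was highest in WT at 37310.5 and 26056, with a mean rank of 60 among all genes. Mmp14 came next at 8573 and 7352, then Adam8 at 4047 and 4361 and Adam17 at 3581 and 3536. Mmp12 was at 2354 and 2591, Timp1 at 241 and 703, Mmp19 at 177 and 234, Mmp8 at 30.9 and 42.7 and Mmp9 at 5.16 and 15.9. No neighbours in this order overlapped. In the cKO samples Mmp13 was also highest at 4 h, at 9662 and 8596, but Adam17 at 3200.5 and 3232 stood above Adam8 at 2866 and 2718, and Mmp9 at 61.8 and 53.1 overlapped Mmp8 at 50.6 and 56.0. In the cKO samples at 0 h, Mmp8 at 1174 and 1321 stood above Mmp14 at 907 and 925, which overlapped Mmp19 at 856 and 932.

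**Figure D1:**
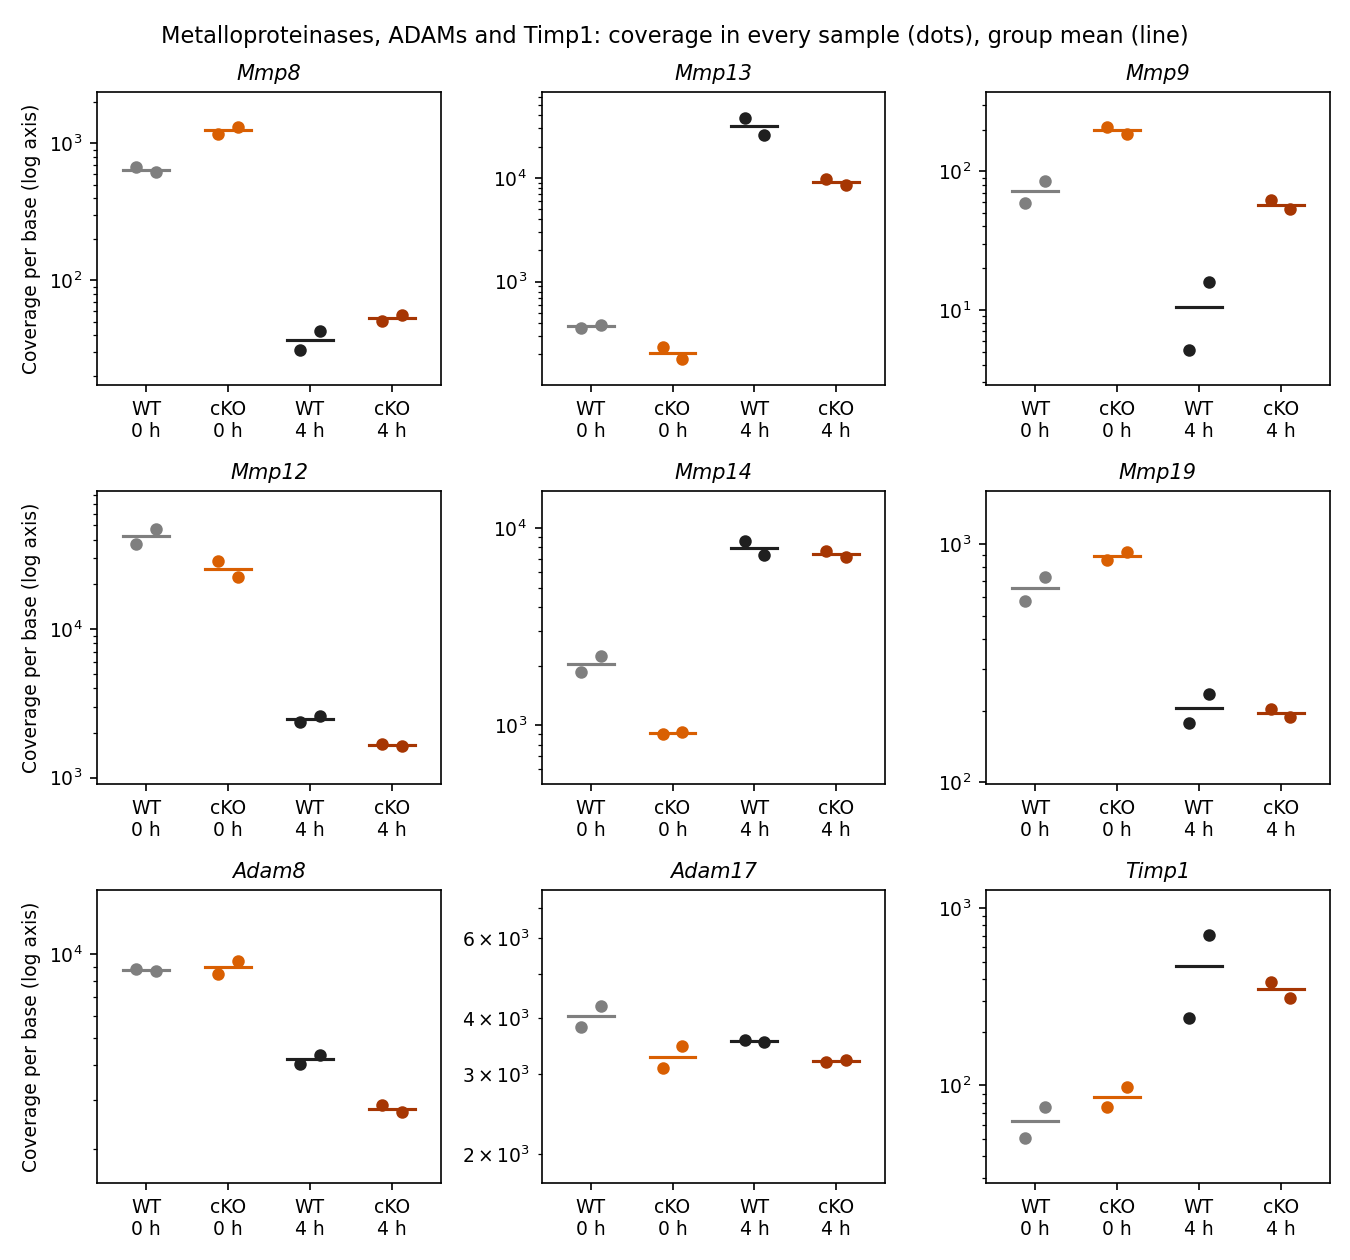
Coverage per base of the 9 genes on log axes in BMDMs of both genotypes, resting (0 h) or stimulated with IFNγ/LPS (4 h), with a dot for each of the 2 samples and a line at the group mean. Mmp13, Mmp14 and Timp1 are higher at 4 h than at 0 h, Mmp8, Mmp9, Mmp12, Mmp19 and Adam8 are lower, and Mmp13 at 4 h lies between 8596 and 9662 in cKO and between 26056 and 37310.5 in WT.

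The first comparison asks how the loss of Nudt21 altered these RNAs in resting macrophages. Higher calls in cKO were made for 2 of the 9 (Mmp8 and Mmp9) and lower calls for 3 (Mmp13, Mmp12 and Mmp14), against 14.6% of the 16251 genes tested, 8.99% higher and 5.61% lower. The same 5 were called after median-centring, where 14.2% of genes were called, 7.25% higher and 6.98% lower. None of the 9 had an adjusted p under 0.05 in limma, which 1.03% of all genes had, and 5 had an unadjusted p under 0.05. When limma was given a variance trend over intensity, 5 of the 9 had an adjusted p under 0.05, as had 11.5% of all genes. With a filter at a mean coverage of at least 5 there were 2 such members, and with all 8 samples in 1 fit 1. With 2 samples against 2, the smallest p that an exact two-sided permutation test allows for 1 gene is 0.333.

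The collagenases, which open the triple helix of fibrillar collagens, stood apart in direction. Mmp8, known as neutrophil collagenase, had a coverage of 669.8 and 615 in WT and 1174 and 1321 in cKO. The groups did not overlap, and both cKO samples were higher by a fold change of 1.94 (log2 fold change 0.96, standard error 0.13, adjusted p = 0.108 from limma; 0.86 after centring). Mmp13 had a coverage of 359.5 and 382 in WT and 234 and 181 in cKO. Both cKO samples were lower than both WT samples, and the fitted difference was 1.8-fold lower in cKO (log2 fold change -0.85, standard error 0.18, adjusted p = 0.159 from limma; -0.94 after centring). The call of Mmp13 was lost when either WT sample was left out, with log2 fold changes of -0.89 and -0.80, while that of Mmp8 was kept without any single sample.

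Mmp9, gelatinase B, which digests denatured collagen and the collagen of basement membranes, was low in all samples. Its coverage at 0 h was 58.8 and 85.0 in WT and 207 and 187 in cKO, with no overlap. The log2 fold change was 1.48 (adjusted p = 0.124 from limma, standard error 0.24; 1.38 after centring), and the call was lost when either cKO sample was left out, through the p, with log2 fold changes of 1.40 and 1.55. Mmp12 was the most covered member and was lower in cKO, at 28783 and 22249 against 37362 and 47254 in WT. Its log2 fold change was -0.73 (adjusted p = 0.224 from limma, standard error 0.22; -0.82 after centring). This call was lost whichever sample was left out, with log2 fold changes from -0.92 to -0.55. It had an unadjusted p of 0.0448 in limma, and of 0.0504 without the filter on low values, where it was not called.

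Mmp14 had a coverage of 1859 and 2243 in WT against 907 and 925 in cKO at 0 h. The cKO samples lay close together and well below WT, 2.23-fold lower (log2 fold change -1.16, standard error 0.15, adjusted p = 0.101 from limma; -1.25 after centring), and the call was kept without any single sample. Mmp19, a secreted MMP that digests basement membrane proteins, was not called, at 578 and 733 in WT and 856 and 932 in cKO (log2 fold change 0.46, standard error 0.18, adjusted p = 0.282 from limma), but was called higher without the second WT sample at a log2 fold change of 0.63. Adam8 overlapped between genotypes, at 8805 and 8688 in WT and 8486 and 9423 in cKO, and its log2 fold change of 0.032 became -0.06 after centring. Adam17 was at 3815 and 4258 in WT and 3103 and 3458 in cKO, without a call (log2 fold change -0.30, standard error 0.13). Timp1, a soluble TIMP that inhibits most secreted MMPs, was at 50.6 and 75.1 in WT and 75.3 and 97.7 in cKO (log2 fold change 0.48, standard error 0.29), also without a call.

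Markers of other cells were read beside Mmp8 and Mmp9, which neutrophils and osteoclasts are known for. The 12 neutrophil markers summed to a coverage of 27250 to 29931 in WT and 30210 to 39592 in cKO at 0 h, most of it from S100a8 and S100a9. None of the 12 was called higher in cKO at 0 h by limma and 1, Retnlg, was called lower, beside 8.99% and 5.61% of all genes. A log2 fold change above 0 was found for 8 of the 12, beside 59.8% of all genes, the largest being that of Camp with 0.45. Ly6g, a defining surface marker of mouse neutrophils, was near 0 in the first and at 7.37 in the second WT sample and at 0 in both cKO samples. The 7 osteoclast markers summed to 1259 to 1691 in WT and 2577 to 2707 in cKO. Of these, Ctsk was called higher, at 398 and 511 in WT and 1558 and 1434 in cKO, Acp5 was not called, at 499 and 639 in WT and 643 and 600.2 in cKO, and Calcr, the calcitonin receptor, was at 0 in all 4 samples. The part of such cells in the Mmp8 and Mmp9 values was not tested.

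The second comparison asks the same after IFNγ/LPS for 4 h. Of the 9 genes, 1 was called higher in cKO (Mmp9) and 2 lower (Mmp13 and Adam8), against 25% of the 14950 genes tested, 20.8% higher and 4.17% lower. After centring 1 was called higher and 3 lower, Mmp12 being the third, against 20.3% of genes, 10.4% higher and 9.9% lower. None had an adjusted p under 0.05 in limma, which 3.86% of all genes had, 4 had an unadjusted p under 0.05, and with the variance trend 4 had an adjusted p under 0.05, as had 28.8% of all genes. That higher filter gave 3 such members, all 8 samples in 1 fit gave 3 and a pseudocount of 1 gave 1.

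Mmp13 showed the largest drop of the 9 at this time. Its coverage was 37310.5 and 26056 in WT and 9662 and 8596 in cKO, so that the higher cKO sample was well below the lower WT sample. The difference was 3.42-fold (log2 fold change -1.77, standard error 0.24, adjusted p = 0.0610 from limma; -2.11 after centring), and the call was kept without any single sample. Adam8 was at 4047 and 4361 in WT and 2866 and 2718 in cKO, without overlap. It was 1.51-fold lower, just past the threshold (log2 fold change -0.59, standard error 0.11, adjusted p = 0.0771 from limma; -0.93 after centring), and the call was lost in 3 of the 4 fits that left out a sample, with log2 fold changes of -0.54 without the second WT sample, -0.63 without the first cKO sample and -0.55 without the second. Mmp12, at 2354 and 2591 in WT and 1688 and 1625 in cKO, was 1.49-fold lower, just short of that threshold (log2 fold change -0.58, standard error 0.11, unadjusted p = 0.0137 from limma), and was called after centring with -0.91.

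Mmp9 had a coverage of 5.16 and 15.9 in WT and 61.8 and 53.1 in cKO. The WT samples were 3.09-fold apart and both below cKO (log2 fold change 2.64, standard error 0.66, adjusted p = 0.107 from limma; 2.31 after centring). The call was lost when either cKO sample was left out, with log2 fold changes of 2.53 and 2.75, and was kept at 1.84 without the first and 3.45 without the second WT sample. The neutrophil markers summed to 19067 to 23432 in WT and 23820 to 26885 in cKO at 4 h, and the osteoclast markers to 934 to 1148 and 2083 to 2304. Over all genes at 4 h the shares with a higher and a lower call were 20.8% and 4.17%, or 10.4% and 9.9% once centred. Both marker lists are to be read beside these shares. Of the 12 neutrophil markers 1 was called higher (Camp, log2 fold change 0.66) and 1 lower (Retnlg, at 0 in both cKO samples). After centring none of the 12 was called higher and 2 lower. Of the 7 osteoclast markers 3 were called higher, 2 of them after centring, and none lower: Ctsk (3.61, adjusted p = 0.0196 from limma), Acp5 (1.32, adjusted p = 0.0475) and Calcr (0.59), the last below 3 in every sample and not called after centring. Their part in the Mmp9 values was not tested. Mmp8, at 30.9 and 42.7 in WT and 50.6 and 56.0 in cKO, was not called (log2 fold change 0.55, standard error 0.22; 0.21 after centring). It was called without the second WT sample, where the log2 fold change was 0.78.

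Mmp14, Mmp19 and Adam17 overlapped or lay close between genotypes at 4 h. Mmp14 was at 8573 and 7352 in WT and 7627 and 7157 in cKO (log2 fold change -0.10, standard error 0.14), where the gap at 0 h was 2.23-fold. Mmp19 was at 177 and 234 in WT and 203 and 188 in cKO (log2 fold change -0.059, standard error 0.19). Adam17 was at 3581 and 3536 in WT and 3200.5 and 3232 in cKO (log2 fold change -0.15, standard error 0.10). Timp1 differed more between the WT samples, 2.92-fold at 241 and 703, than between genotypes, with 383 and 313 in cKO (log2 fold change -0.25, standard error 0.64). Without the first WT sample the Timp1 log2 fold change was -1.02, past the call rule, and without the second it was 0.52. The 8 fibroblast markers, read because fibroblasts are a known source of Timp1, summed to 53.3 in the first and 135 in the second WT sample, with Dcn at 0 and 11.6 and Col1a1 at 6.16 and 33.2. Their part in the Timp1 values was not tested.

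**Figure D2:**
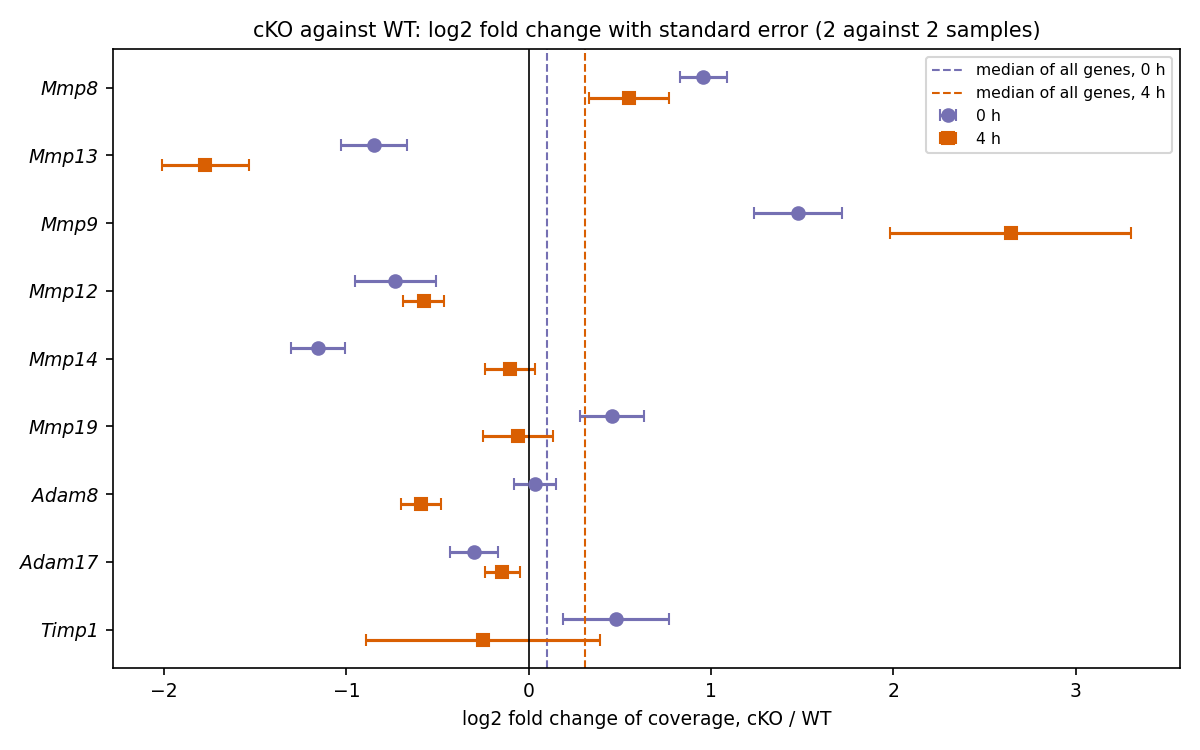
Log2 fold change of coverage in cKO against WT for the 9 genes at 0 h (circles) and after IFNγ/LPS for 4 h (squares), 2 against 2 samples, with bars for the standard error and dashed lines at the median of all genes tested (0.10 and 0.31). Mmp13 lies at -0.85 and -1.77, Mmp9 at 1.48 and 2.64, and Mmp14 at -1.16 at 0 h but -0.10 at 4 h.

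The third comparison asks how IFNγ/LPS altered the genes in each genotype. In WT, 3 of the 9 were called higher at 4 h than at 0 h (Mmp13, Mmp14 and Timp1) and 5 lower (Mmp8, Mmp12, Mmp9, Mmp19 and Adam8), against 67% of the 16002 genes tested, 11.9% higher and 55.1% lower. In cKO the same 3 were called higher and the same 5 lower, against 66.9% of the 16223 genes tested, 13.7% higher and 53.2% lower. In each genotype 8 of the 9 had an adjusted p under 0.05 in limma, which 64.8% and 69.7% of all genes had. The median coverage per gene was 10.4 to 14.7 at 4 h and 33.0 to 36.4 at 0 h. After centring, 4 were called higher and 2 lower in WT, against 33.5% and 22.4% of genes, and 4 were called higher and 3 lower in cKO, against 32.7% and 23.2%.

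Mmp13 went from 359.5 and 382 to 37310.5 and 26056 in WT, 84.1-fold (log2 fold change 6.39, standard error 0.24, adjusted p = 0.00224 from limma). In cKO it went from 234 and 181 to 9662 and 8596, 44.3-fold (log2 fold change 5.47, standard error 0.18, adjusted p = 0.00145). Among all genes tested, its log2 fold change was at percentile 98.6 in WT and 97.6 in cKO. Mmp14 rose 3.89-fold in WT and 8.07-fold in cKO, from a lower resting level in cKO to similar levels at 4 h. Timp1 rose 6.67-fold in WT (log2 fold change 2.74, standard error 0.67, adjusted p = 0.0392 from limma) and 4.03-fold in cKO. The Timp1 call in WT was lost when either WT 0 h sample was left out, with log2 fold changes of 2.45 and 3.02, and was kept at 3.51 without the first and 1.97 without the second WT 4 h sample. After centring these 3 were called higher in both genotypes, with log2 fold changes in WT and cKO of 7.85 and 6.67 for Mmp13, 3.41 and 4.22 for Mmp14 and 4.19 and 3.22 for Timp1.

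Mmp8 and Mmp12 fell furthest. Mmp8 fell 17.6-fold in WT and 23.4-fold in cKO, and Mmp12 17.0-fold and 15.3-fold, and all 4 calls were kept after centring, where the folds were 6.45, 10.1, 6.22 and 6.63. Mmp9 was 7.70-fold lower in WT and 3.43-fold lower in cKO, and neither call was kept after centring, with log2 fold changes of -1.49 and -0.58. The WT call of Mmp9 was also lost without either WT 0 h sample, with log2 fold changes of -3.21 and -2.68, and was kept at -2.14 without the first and -3.75 without the second WT 4 h sample. Mmp19 fell 3.20-fold in WT, where the call was lost after centring at a log2 fold change of -0.22 and without the second WT 0 h sample at -1.5, and 4.57-fold in cKO, where it stayed called at -0.99.

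The 2 ADAMs moved less than the collagenases and Mmp12. Adam8 was 2.08-fold lower in WT and 3.20-fold lower in cKO on the deposited scale, but after centring its log2 fold change was 0.39 in WT and -0.48 in cKO, without a call in either. Adam17 was nearly level, at 3815 and 4258 at 0 h and 3581 and 3536 at 4 h in WT, and at 3103 and 3458 at 0 h and 3200.5 and 3232 at 4 h in cKO (log2 fold changes -0.18 and -0.027, standard errors 0.14 and 0.10). After centring it was called higher in both, with 1.27 and 1.18, so that its direction depends on the scaling.

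**Figure D3:**
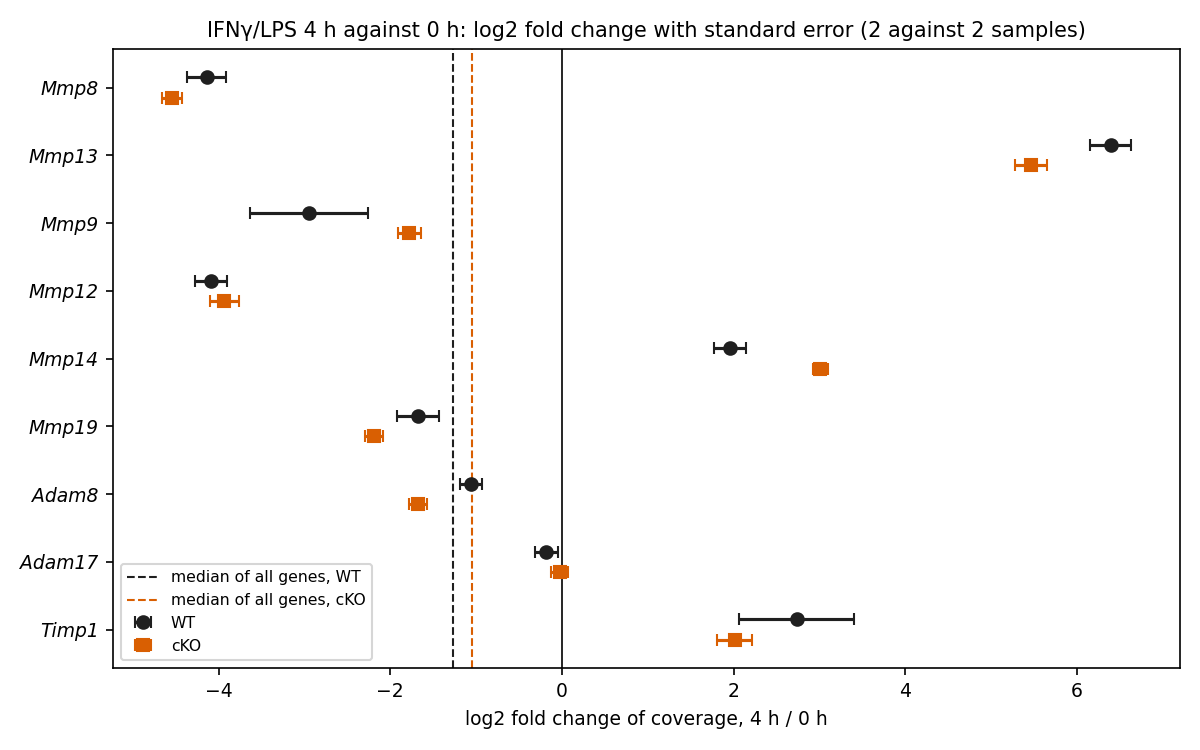
Log2 fold change of coverage after IFNγ/LPS for 4 h against 0 h for the 9 genes in WT (circles) and cKO (squares), 2 against 2 samples, with bars for the standard error and dashed lines at the median of all genes tested (-1.27 and -1.05). Mmp13 is at 6.39 in WT and 5.47 in cKO and Mmp14 at 1.96 and 3.01, while Adam17 stays near 0 in both.

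An interaction term fitted to all 8 samples tested whether the genotype difference at 4 h was another than that at 0 h. None of the 9 genes had an adjusted p under 0.05 in limma, against 3.05% of the 16284 genes tested, and 3 had an unadjusted p under 0.05. For Mmp14 the log2 fold change at 4 h was 1.05 above that at 0 h (adjusted p = 0.0675 from limma, standard error 0.20; 0.79 with an adjusted p of 0.188 after centring). It passed with a higher filter on low values, at a mean coverage of at least 5 (adjusted p = 0.0446), and with the variance trend (adjusted p = 0.0132), where 7.87% of genes passed. For Adam8 the term was -0.62 (standard error 0.15, adjusted p = 0.0952), and after centring, where 2.12% of genes passed, it was -0.89 (adjusted p = 0.0444). The variance trend gave Adam8 an adjusted p of 0.0233. For Mmp13 it was -0.93 (standard error 0.32, adjusted p = 0.182). For the other 6 genes the adjusted p lay between 0.343 and 0.774.

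Mmp13, Mmp12 and Mmp8 lie in a cluster of MMP genes on chromosome 9 of GRCm38, which also holds Mmp27, the neighbour of Mmp8. In the GENCODE M21 annotation the order is Mmp13 (chr9:7272514-7283331), Mmp12 (chr9:7344381-7369499), Mmp1b, Mmp3, Mmp1a, Mmp10, Mmp8 (chr9:7558456-7568485), Mmp27 (chr9:7571396-7581885), Mmp20 and Mmp7, all on the plus strand but Mmp1b. Mmp1a and Mmp7 were not analysed here. Mmp27 begins 2910 bases after the end of Mmp8, and the means of both RNAs had the same order of groups, cKO at 0 h, WT at 0 h, cKO at 4 h and WT at 4 h from high to low. Mmp27 had a coverage of 311 and 265 in WT against 536 and 516 in cKO at 0 h (log2 fold change 0.87, standard error 0.14, adjusted p = 0.121 from limma, called higher), and of 3.59 and 10.6 in WT against 10.1 and 8.75 in cKO at 4 h, where the genotypes overlapped. Mmp1b, at 0 and 0.492 in WT against 5.41 and 3.90 in cKO at 0 h, was called higher but shares 157 exonic bases with Mmp12 on the opposite strand. As the counting is not stated to use strand, reads of the 2 genes cannot be told apart there. Mmp10 was between 1.31 and 8.91 in all samples, and Mmp3 and Mmp20 were at 0 in most.

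**Figure D4:**
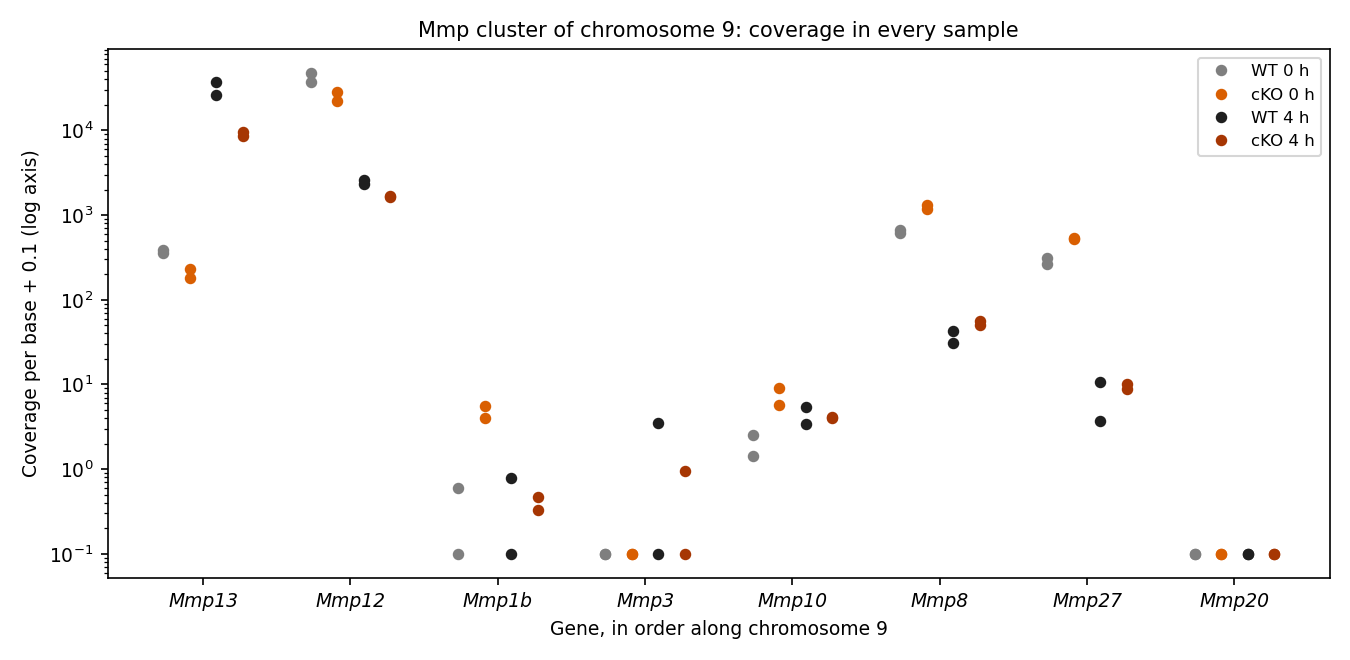
Coverage per base plus 0.1, on a log axis, of the measured MMP genes of the chromosome 9 cluster in their order along the chromosome, with 1 dot per sample and a colour for each group. Mmp13 at the left end is higher at 4 h than at 0 h, Mmp12, Mmp8 and Mmp27 are lower at 4 h, and Mmp1b, Mmp3, Mmp10 and Mmp20 stay below 10 in every sample.

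The promoters of the 2 members with the highest levels, Mmp13 after stimulation and Mmp12 at rest, are shown at their AP-1 motif, the element bound by Jun and Fos proteins. Windows of RefSeq (GRCm38.p6) from 250 bases before to 50 after the start matched 7 of the 9 genes, with 2 windows for Mmp12 and none for Mmp9 and Mmp19. The AP-1 motif TGANTCA, searched on both strands, occurred in the Mmp13 window and in 1 of the 2 Mmp12 windows, and in 7.81% of all 32851 windows. The capitals mark the motif, on the plus strand from chr9:7272470-7272494 and chr9:7347321-7347345, its first base lying 35 and 44 bases before the start.
Mmp13: ccaaagtggTGACTCAtcactatca
Mmp12: catcaacagTGAGTCAgatagagga
The same 2 windows and that of Mmp8 held TATAAA, which 13.6% of all windows held on either strand. In Mmp12 it began at position 5, past the start, and in Mmp8 it lay on the minus strand at position -3. In Mmp13 it began 16 bases before the start and is in capitals below (chr9:7272489-7272512).
Mmp13: ctatcatgcTATAAAatagaagat
The motif AGGAAG, bound by Ets factors, was found in 6 of the 7 genes, all but Adam8, and in 35.4% of windows. An NF-kB motif was in none of the 7 genes and in 5.56% of windows. A match describes letters in a window and not a bound site.

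The inhibitors beyond Timp1 were led by Timp2, which also takes part in the activation of pro-Mmp2 by Mmp14. Of the 5 other inhibitors listed, 4 were tested at 0 h and 2 (Timp2 and Reck) had a higher call in cKO, and 3 were tested at 4 h and 2 were called higher, again Timp2 and Reck, where 8.99% and 20.8% of all genes were called higher, with medians of 0.58 and 0.93 on the log2 scale against 0.10 and 0.31 over all genes. After centring Reck was called at 0 h and Timp2 at 4 h. Timp2 had a coverage of 4586 and 5210.1 in WT against 7839 and 7466 in cKO at 0 h. At 4 h it was 462 and 608 in WT and 2697 and 3096 in cKO, without overlap at either time. Its log2 fold change was 0.65 at 0 h (adjusted p = 0.145 from limma, standard error 0.13) and 2.45 at 4 h (adjusted p = 0.0467, standard error 0.20), and the difference of 1.8 passed the interaction test (standard error 0.24, adjusted p = 0.0349). Without single samples the call at 0 h was lost in 3 of 4 fits, with log2 fold changes of 0.55, 0.61 and 0.68, that at 4 h was kept, and the interaction ran from 1.6 to 2.0 with an adjusted p of 0.0285 to 0.119, under 0.05 in 1 of 8 fits. Timp2 fell with stimulation in both genotypes on the deposited scale, 9.22-fold in WT and 2.65-fold in cKO, and after centring only the WT call remained, with log2 fold changes of -1.75 and -0.20. Reck, a membrane-anchored inhibitor, was low, at 5.55 and 8.27 in WT against 12.7 and 14.8 in cKO at 0 h. Timp3, bound to matrix, was at 20.1 and 48.7 in WT against 37.4 and 52.7 in cKO at 0 h and was called in none of the 4 comparisons on the deposited scale. Timp4 was at 0 in 7 of the 8 samples.

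**Figure D5:**
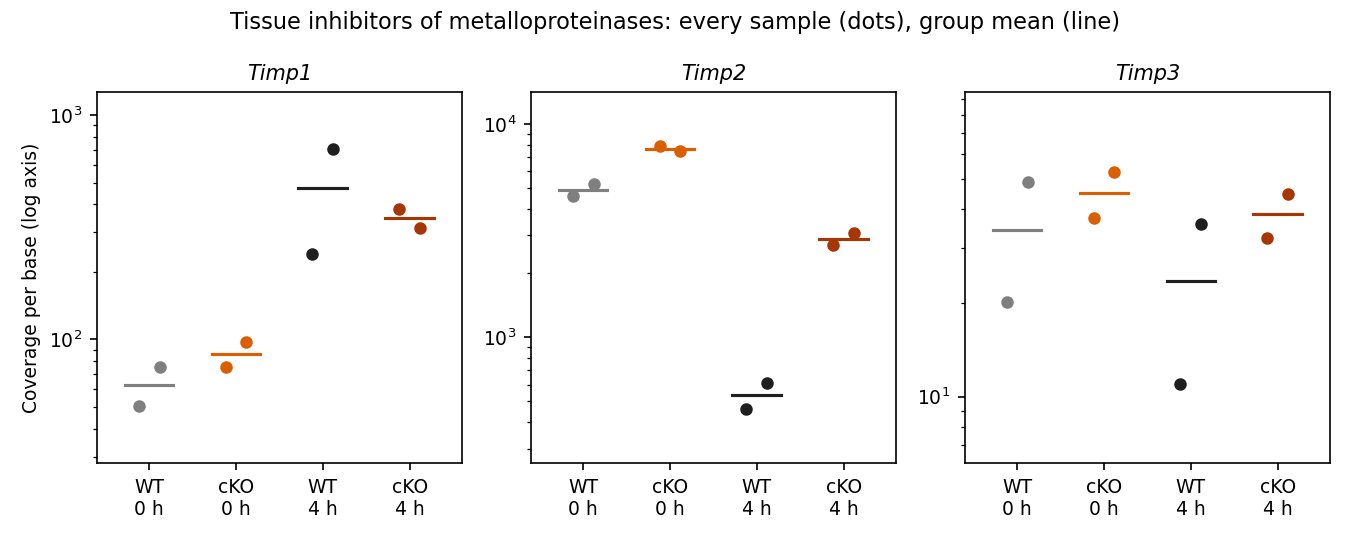
Coverage per base of Timp1, Timp2 and Timp3 on log axes in the 4 groups, with a dot for each of the 2 samples and a line at the group mean. Timp2 at 4 h is at 462 and 608 in WT and 2697 and 3096 in cKO, Timp1 is higher at 4 h than at 0 h, and the Timp3 samples of a group differ up to 3.25-fold.

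Of the 17 other MMPs, 15 were measured and most were scarce. At 0 h 10 were tested and 3 were called higher in cKO (Mmp27, Mmp10 and Mmp1b) and none lower, and at 4 h 8 were tested and 1, Mmp2, was called higher and none lower, where 8.99% and 20.8% of all genes tested were called higher. Mmp25, a membrane-anchored MMP of leukocytes, rose with stimulation, from 4.07 and 2.07 to 1500.1 and 1411 in WT (log2 fold change 8.92, standard error 0.40, adjusted p = 0.00255 from limma; 10.37 after centring) and from 3.37 and 5.33 to 1053 and 1005 in cKO. At 4 h its cKO samples were both below WT (log2 fold change -0.50, standard error 0.11), without a call on the deposited scale and called lower after centring with -0.84. Mmp2, gelatinase A, was at 12.2 and 18.2 in WT against 47.3 and 55.6 in cKO at 4 h (log2 fold change 1.78, standard error 0.27, adjusted p = 0.0652 from limma), while the markers of fibroblasts, a known source of Mmp2, summed to 53.3 to 135 in WT and 119 to 152 in cKO, and their part was not tested. Mmp11, at 20.9 and 15.1 in WT against 19.2 and 30.7 in cKO at 0 h, was below 2 in all 4 samples at 4 h.

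Of the 30 other ADAMs listed, 19 were measured. At 0 h 14 were tested, with 4 called higher in cKO and 1 lower, and at 4 h 13 were tested, with 2 called higher and 1 lower, beside 14.6% and 25% of all genes called in either direction, all of them scarce genes, the most covered being Adam1a at 4 h with a mean coverage of 88.9. Adam10, the other main sheddase of macrophages, was the most covered at 0 h. Between genotypes it was at 3402 and 3393 in WT against 3568 and 3725 in cKO at 0 h and 650.1 and 899 in WT against 979 and 951 in cKO at 4 h, with log2 fold changes of 0.10 and 0.34 and no call. Unlike Adam17 it was called lower with stimulation in WT, at -2.15, and in cKO, at -1.92, and also after centring. Adam15 and Adam9 had no call between genotypes at either time. Adam22, without protease activity, was at 1.24 and 1.63 in WT against 8.47 and 8.95 in cKO at 4 h (log2 fold change 2.53, standard error 0.18, adjusted p = 0.0438 from limma). Adam30, at 0 in both WT samples and at 5.04 and 9.73 in cKO at 0 h, and Adam33, at 29.3 and 22.2 in WT against 58.5 and 104 in cKO, were called higher at 0 h, and Adam21, at 1.88 and 1.13 in WT and 0 in both cKO samples, was called lower.

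Among the 19 secreted ADAMTS proteases, 16 were measured and 8 tested at 0 h, with 1 called higher in cKO (Adamts1), and 9 tested at 4 h, with 3 called higher and 1 of these after centring; none was called lower at either time. Of all genes 8.99% and 20.8% were called higher. Adamts1 was at 1.49 and 1.98 in WT against 6.73 and 7.95 in cKO at 4 h (log2 fold change 2.03, standard error 0.20, adjusted p = 0.0506 from limma). Adamts4, an aggrecanase, went from 0.488 and 0.224 to 24.1 and 46.6 in WT with stimulation (log2 fold change 6.27, 7.72 after centring). Adamts10 went the other way, from 375 and 282 to 22.7 and 21.2 in WT (log2 fold change -3.88, -2.43 after centring).

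Adam17 needs the iRhom proteins, encoded by Rhbdf1 and Rhbdf2, to leave the endoplasmic reticulum, and Furin and related convertases remove its prodomain. Of 8 such genes, 6 were tested, with 1 called higher in cKO at 0 h (Pacs2) and 2 at 4 h (Pacs2 and Rhbdf1), beside 8.99% and 20.8% of all genes, and none lower, beside 5.61% and 4.17%. Rhbdf2, the main iRhom of macrophages, was at 802 and 732 in WT against 751 and 836 in cKO at 0 h and at 4220.1 and 3929.8 in WT against 5437 and 5440.2 in cKO at 4 h. It rose 5.32-fold in WT and 6.86-fold in cKO with stimulation and had no call between genotypes (log2 fold change 0.42 at 4 h, standard error 0.10). Furin rose 2.40-fold and 3.07-fold with stimulation. After centring the log2 fold changes in WT were 3.86 for Rhbdf2 and 2.71 for Furin, both still called higher. Pacs2, a sorting protein that takes part in the recycling of Adam17, was at 622 and 678 in WT against 1606 and 1790.0 in cKO at 4 h (log2 fold change 1.38, standard error 0.12, adjusted p = 0.0480 from limma; 1.05 after centring). Rhbdf1 was at 6.60 and 11.3 in WT against 23.0 and 22.3 in cKO at 4 h.

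Membrane proteins that Adam17 is known to release made up a list of 17, of which 15 were tested at each time between genotypes. At 0 h none was called higher in cKO and 1, Vcam1, was called lower, with 457 and 566 in WT and 189.5 and 113 in cKO, beside 5.61% of all genes called lower. After centring 3 were called lower at 0 h, beside 6.98% of all genes, Csf1r (-0.65) and Cd163 (-0.59) being the other two. At 4 h 3 were called higher, 2 of them after centring, and none lower, a share of higher calls near the 20.8% of all genes. With stimulation 8 of 16 were called higher in WT and 3 lower, and after centring 12 and 2, where 11.9% and 55.1% of all genes, and after centring 33.5% and 22.4%, were called. Tnf went from 205 and 165 to 207348 and 155252 in WT and from 234 and 305 to 209719 and 236747 in cKO, and at 4 h both cKO samples were above both WT samples, without a call (log2 fold change 0.31, standard error 0.21; -0.024 after centring). Tnfrsf1b, TNF receptor 2, was at 17659.8 and 16235 in WT against 28840.1 and 29849.9 in cKO at 4 h (log2 fold change 0.79, standard error 0.11, adjusted p = 0.0612 from limma), a call that was lost after centring with 0.46. Areg, a ligand of the EGF receptor, was at 0 in all 4 samples at 0 h and at 36.2 and 24.2 in WT against 87.4 and 144 in cKO at 4 h (log2 fold change 1.92, standard error 0.38). Icam1 rose with stimulation to 32164 and 31602 in WT and 37092 and 38451 in cKO. Cd163, a scavenger receptor, was at 49.8 and 61.6 in WT against 39.8 and 38.4 in cKO at 0 h and below 0.5 in all samples at 4 h.

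Plasmin activates several pro-MMPs, and the genes of its own activation were read beside them. Plau, the urokinase, was lower in cKO at 0 h, at 3699 and 3444 against 5367 and 6745 in WT, and Plat, the tissue activator, was lower at 4 h, at 346 and 342 against 568 and 540.0. Plaur, the urokinase receptor, was at 1220.0 and 1160.3 in WT against 1726 and 1681 in cKO at 0 h and at 11011 and 9194 in WT against 6818 and 6756 in cKO at 4 h. It had no call at either time on the deposited scale (log2 fold changes 0.52 and -0.57) and was called lower at 4 h after centring with -0.90, and its genotype difference moved by -1.09 between times (standard error 0.17, adjusted p = 0.0462 from limma), with an adjusted p of 0.0757 after centring. Serpinb2 rose with stimulation in WT, from 4.11 and 16.8 to 145 and 136.

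The cysteine cathepsins, lysosomal proteases that also digest matrix, were read with Cst3, the inhibitor cystatin C. These 8 genes gave 1 call higher in cKO at 0 h and 4 at 4 h, 2 of the latter after centring, and none lower, where 8.99%, 20.8% and, centred, 10.4% of all genes were called higher, and Cst3 had no call at either time. Ctsk, a collagen-degrading cathepsin, was at 16.3 and 17.99 in WT against 226 and 195 in cKO at 4 h (log2 fold change 3.61, standard error 0.14, adjusted p = 0.0196 from limma; 3.27 after centring). Ctsb, the most covered of the list, was at 88798 and 103637 in WT against 155582 and 164379 in cKO at 4 h (log2 fold change 0.74), and its call was lost after centring. Ctsl and Ctsc had no call between genotypes, and stimulation raised Ctsc 11.4-fold and lowered Ctsl 5.28-fold in WT, calls that were kept after centring at log2 fold changes of 4.96 and -0.95.

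The 9 genes lie on 7 chromosomes of GRCm38, and 5 of them overlap another gene. Mmp9 (chr2:164940780-164955850), Mmp14 (chr14:54431612-54445364), Mmp19 (chr10:128790910-128800824) and Timp1 (chrX:20870166-20874735) are on the plus strand, and Adam8 (chr7:139978932-139992562) and Adam17 (chr12:21323509-21373632) on the minus strand. Mmp19 shares 789 exonic bases with Tmem198b and 212 with Gm47093, Adam17 shares 311 with Iah1, and Adam8 shares 46 with Gm16201, all on the opposite strand, so that some of their reads cannot be assigned without strand. Timp1 lies inside Syn1 and shares no exonic base with it. In the 3′UTR of 1 transcript per gene, the motif UGUA was counted on the sense strand. Mmp12 had 20 in 2134 bases, or 9.37 per kilobase, against a median of 4.78 per kilobase and of 6 motifs over 16238 genes. Timp1, with 103 bases, had none. The others lay between 3.30 per kilobase in Mmp13 and 6.36 in Mmp9, and Adam17 had the longest of the 9 3′UTRs with 3593 bases and 19 motifs. No use of polyadenylation sites was measured here.

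Across the 8 samples, the genes whose log2 coverage was most like that of a member were named from 12973 genes with a mean of at least 5. These correlations are a description over samples that share treatment and library and that lie apart by time. The 2 most like Mmp13 were Lztfl1 and Cldnd1 (r = 0.998 and 0.997), and for Mmp14 they were Ptger4 and Slc2a1 (both r = 0.995). For Mmp8 they were Bcar3 and Kbtbd4, for Mmp12 Tnfrsf26 and Itgb5, for Mmp9 Psmd9 and Gstm2, for Mmp19 Upf2 and Ppp6r3, and for Adam8 Zfp78 and Zmym2, all with r between 0.994 and 0.999. Timp1 was most like Ncoa7 (r = 0.991) and Dennd4a (r = 0.989). Adam17, the least variable member, had the lowest values, 0.939 with Slc22a18 and 0.933 with Xiap. Between members, r ran from -0.99 for Mmp8 with Mmp13 to 0.99 for Mmp8 with Mmp19.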

How the data were processed

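RNA from 8 BMDM samples was sequenced in paired ends from NEBNext Ultra libraries. Per the labels and the study's methods, the authors aligned reads to GRCm38 with HISAT2 2.2.1, quantified RefSeq genes with StringTie 2.1.7 and deposited 2 tables, 1 per time, with a value for each symbol in each sample. The authors did not name the unit: the deposited values behave as a coverage signal, the mean number of reads per base that StringTie gives, and no scaling between samples was found, so the 2 tables were joined by symbol. Groups came from the sample titles. Log2 values with a pseudocount of 0.1 were compared with limma 3.58.1 (R 4.3.3), leaving out genes below a mean of 0.5, with Benjamini-Hochberg adjustment. The pseudocount understates changes of scarce genes. The fits were tested on simulated data. The p-values measure the spread between 2 pools of mice per group. The 9 members and all gene lists were chosen with earlier results of these data known. From each list the text names up to 4 called genes with the largest fold change and the most covered gene, and for each member the 2 genes most like it. Other genes are named where a count of 5 or fewer, a neighbouring locus or the interaction test singles them out, which was decided after their values were seen. Alternatives were pseudocounts of 0.01 and 1, other filters on low values, median-centring, equal totals, quantile normalization, a variance trend over intensity, 1 fit of all samples, a replicate block and leaving out each sample. Some results of the gene lists are not reported here. Positions and 3′UTRs came from GENCODE M21. Figures were drawn with matplotlib 3.10.9.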

Additional observations from a re-analysis of the deposited data

Results flagged for a closer look

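For 6 of the 73 tested genes of the protease, inhibitor and pathway lists read beside the 9, cell type markers not counted, the genotype difference at 4 h differed from that at 0 h with an adjusted p under 0.05 in limma's interaction test, against 3.05% of all genes tested. Adam30 moved by -4.56 on the log2 scale (adjusted p = 0.0262), with both WT samples at 0 at 0 h, so that this size depends on the pseudocount. Adam22 moved by 2.0 (adjusted p = 0.0306), Ctsk by 1.88 (adjusted p = 0.0291) and Timp2 by 1.8 (adjusted p = 0.0349). Tnfrsf1b moved by 1.11 (adjusted p = 0.0487) and Plaur by -1.09 (adjusted p = 0.0462). After median-centring Adam30, Adam22 and Timp2 passed, while Ctsk, Tnfrsf1b and Plaur did not. With a replicate block 31 genes in all passed, against 496 without it, and the result of these 6 genes in that fit is not reported here. When single samples were left out, each of these 6 genes lost the call in 5 to 7 of 8 fits. None of the 9 genes passed on the deposited scale with the settings as reported, and 3 had an unadjusted p under 0.05, while Mmp14 passed with the higher filter on low values and Mmp14 and Adam8 with the variance trend. Groups of 2 samples allow no search for single outlying samples.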

How the results depend on the processing

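With 2 samples per group, fits that leave out a sample assume that the lone sample of a group varies like the other group. Over the 9 genes and the alternatives that kept all samples, 401 values kept their direction and their side of the threshold, 7 lost and 7 gained the call, and 8 changed direction. The 8 were the Adam8 difference between genotypes at 0 h (-0.060 median-centred, -0.091 at equal totals, -0.037 after quantile normalization) and, after median-centring, the response to stimulation of Adam8 in WT (0.39) and of Adam17 in WT (1.27) and cKO (1.18), and the interaction terms of Mmp12 (-0.11) and Adam17 (-0.11). Among the other genes, median-centring turned the stimulation response of Adam15 (0.58), Reck (0.27), Pacs2 (0.31) and Frmd8 (0.18) in WT and of Pacs2 (0.60), Frmd8 (0.18) and Csf1r (0.11) in cKO, and quantile normalization turned that of Reck (0.25) and Adamts13 (1.18) in WT. Centring and quantile normalization remove the general drop at 4 h by construction.

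When each sample was left out in turn, the log2 fold change of Adam8 at 0 h ran from -0.044 to 0.11, those at 4 h of Mmp14 from -0.21 to 0.0071, of Mmp19 from -0.26 to 0.14 and of Timp1 from -1.02 to 0.52, the response of Adam17 in cKO from -0.10 to 0.052, and the interaction terms of Mmp12 from -0.030 to 0.34 and of Timp1 from -1.5 to 0.046. The cause was not tested. Genes called in the genotype comparison numbered 2048 to 2507 at 0 h and 2388 to 4526 at 4 h, the lowest without cKO 4 h replicate 4, and 192 to 690 had an interaction. The interaction count of 496 became 1282 with the variance trend.

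The sources do not say whether samples with the same replicate number came from the same mice, and the samples were not treated as pairs. The correlation of their deviations from group means over 16284 genes was 0.020 for replicates 1 and 2 and 0.024 for replicates 3 and 4. With 2 samples per group the deviations mirror each other, so each genotype gives 1 such value, which cannot decide whether the samples were paired. With a replicate block, 10331 genes were called for stimulation in WT, 10599 in cKO and 31 in the interaction, and no call of the 9 genes changed.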
